A study of Mus musculus with 11 samples.

Results

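The 9 genes described here encode nuclear receptors and other transcription factors or cofactors that build the adrenal cortex: Nr5a1, Nr0b1, Gata6, Gata4, Wt1, Cited2, Nr2f1, Nr2f2 and Tcf21. Every probe whose RefSeq accession belongs to 1 of them was taken, which gave 14 of the 41174 probes and 9 of the 17374 named genes on the array. All 9 genes passed the filter on dim probes (a signal that stood well above background on 4 or more of the 11 arrays), as did 13 of the 14 probes when each was tested alone. The samples were 4 Star-/- knockout mice and 7 Star+/+ wild-type mice, embryos of E17.5-18.5, from whose adrenal glands cells positive for eGFP had been sorted by flow cytometry. Each single-colour Agilent array held linearly amplified RNA of 1 mouse. Star moves cholesterol to the inner mitochondrial membrane, where steroid synthesis begins, and the question was how these cells differ without it. The 4 knockout mice were labelled male, and the 7 wild-type mice 3 male and 4 female. Both genotypes carried the eGFP reporter, whose promoter is not named in the sources used here.

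Nr5a1 encodes SF-1 (also called Ad4BP), the nuclear receptor that the adrenal gland and gonads need to form and that binds the promoters of most steroidogenic genes. Nr0b1 encodes DAX1, a nuclear receptor without the usual DNA-binding domain that represses SF-1 and marks immature cortical cells; human mutations in it cause congenital adrenal hypoplasia. WT1 and its cofactor CITED2 switch on Nr5a1 in the adrenogonadal primordium, GATA6 and GATA4 act beside SF-1, and COUP-TFI, COUP-TFII and TCF21 are known from capsule, stroma or outer cortex.

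Levels are log2 processed signals minus the 75th percentile of their own array, so a level of 0 equals that percentile, and levels of different probes are not set against each other. Slide 1 held 2 knockout and 2 wild-type arrays, slide 2 held 2 knockout and 1 wild-type array (number 3), and slide 3 held 4 wild-type arrays (numbers 4 to 7). All arrays of slide 1 were labelled male. On slide 2 the wild-type array was labelled female and the knockout arrays male, so genotype and sex cannot be told apart there for any gene. The fitted difference is knockout minus wild-type with slide as a term, so it compares 4 knockout with 3 wild-type arrays, those of slides 1 and 2, while slide 3 informs only the spread. Between 19071 and 26416 probes per array were well above background. Wild-type array 3 was the dimmest, with a 75th percentile of 115 signal units, and correlated least with the others (median correlation 0.830). Over all tested features the median difference was −0.06 within slide 1 and −0.33 within slide 2, where array 3 is the only wild-type array. Wild-type array 4, labelled female, had a level of 2.70 for the Y-linked gene Ddx3y, near the 2.26 to 3.32 of the arrays labelled male and far above −6.74 to −5.27 on the other 3 labelled female. The Star probe itself lay between 1.58 and 3.27 on knockout arrays and between 3.21 and 7.86 on wild-type arrays. Its difference of −4.70 ± 0.93 (SE, 4 against 3 arrays) narrowly missed the threshold, with a limma adjusted p of 0.0560, and whether the probe lies inside the deleted part is not known here.

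Of the 9 genes, only Nr0b1 passed an adjusted p of 0.05 in limma, and it was lower in the knockout arrays. Across all 20764 genes and unnamed probes tested, 0.833% passed in either direction and 0.231% passed with a lower level in the knockout. The fitted difference was below 0 for 7 of the 9 and above 0 for Wt1 and Nr2f1, with a median of −0.42 against −0.16 over everything tested. Nr0b1 was also the only 1 of the 9 whose knockout and wild-type levels did not overlap, where 7.37% of all tested features had no overlap and 3.24% had none with the knockout lower. An unadjusted p under 0.05 was found for 2 of the 9, Nr0b1 and Gata6, against 18.5% of all tested. Within slide 1 and within slide 2 the difference had the same sign for 6 of the 9, against 63.2% of all tested.

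**Figure D1:**
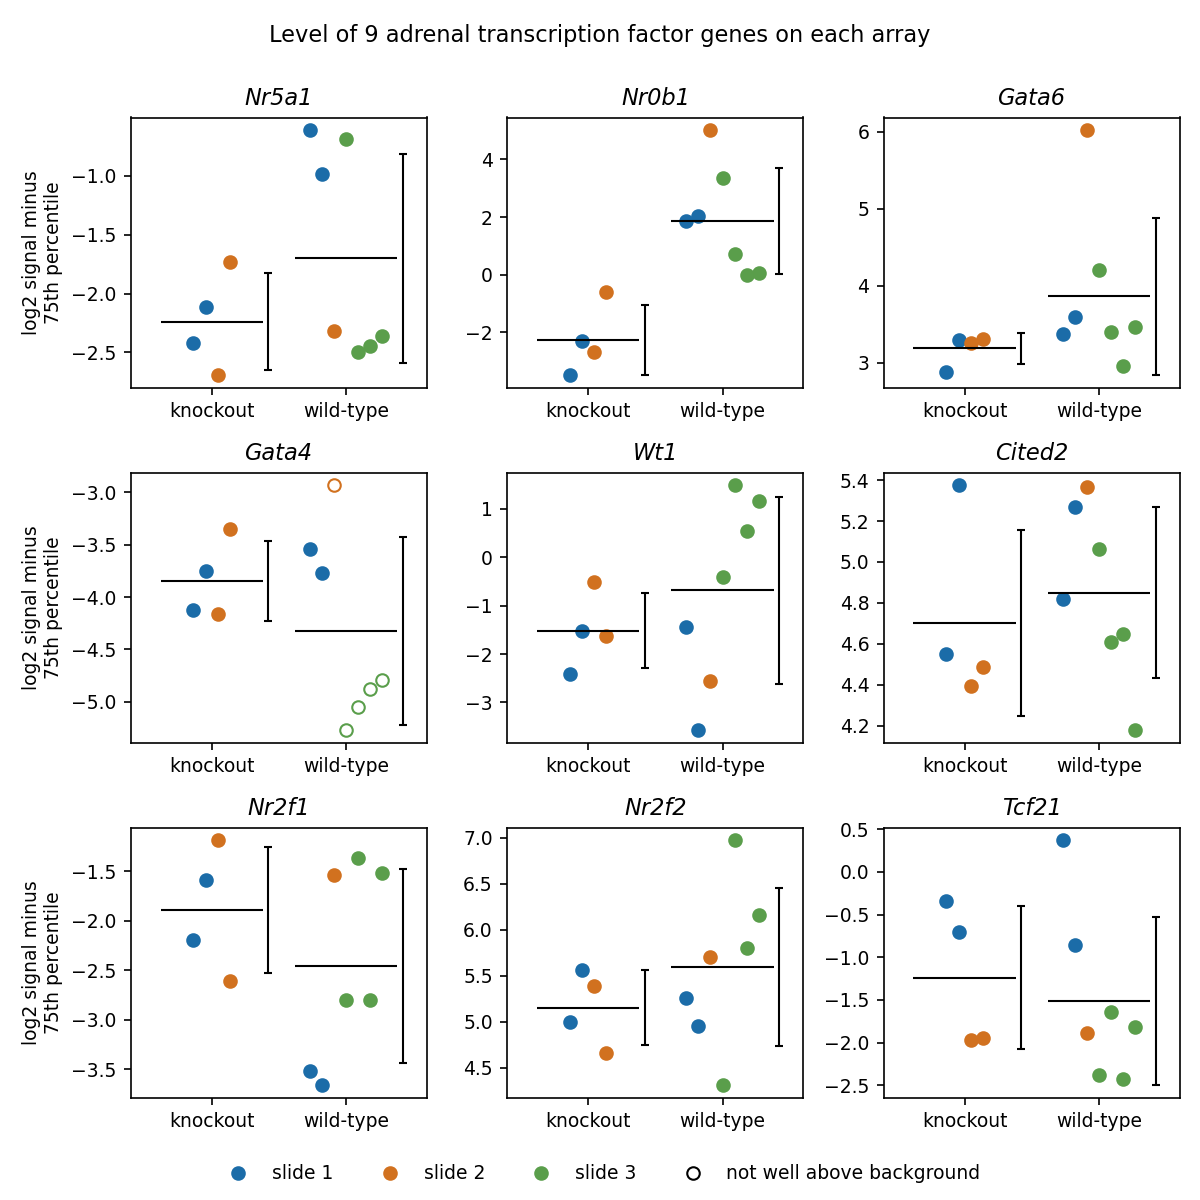
Level of each of the 9 genes on every array (y axis, log2 signal minus the array's 75th percentile; each panel has its own scale), with knockout arrays on the left and wild-type arrays on the right of each panel. Points are arrays coloured by slide, open points are not well above background, and the line and bar give the mean and SD of 4 knockout and 7 wild-type arrays; only for Nr0b1 do the groups not overlap.

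**Figure D2:**
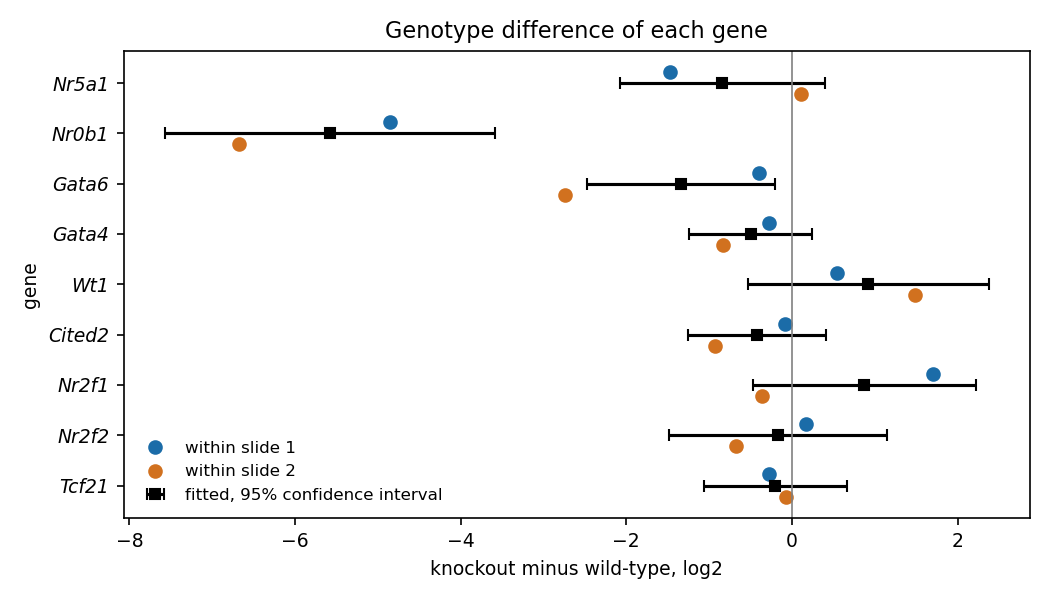
Knockout minus wild-type difference of each gene (x axis, log2). Squares with bars are the limma fit with its 95% confidence interval, and the points above and below are the plain differences within slide 1 (2 against 2 arrays) and slide 2 (2 against 1); Nr0b1 lies at −5.58 and every other interval except that of Gata6 includes 0.

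Nr0b1, the SF-1 repressor, fell in the knockout arrays on its single probe (A_51_P106455, NM_007430). Its level was −3.50, −2.30, −2.69 and −0.59 on knockout arrays 1 to 4. On wild-type arrays it was 1.86 and 2.04 on slide 1, 5.03 on slide 2, and 3.35, 0.72, −0.02 and 0.05 on slide 3. Every knockout level lay below every wild-type level, with the closest pair at −0.59 on knockout array 4 and −0.02 on wild-type array 6. The probe was well above background on all 11 arrays, with processed signals of 58.7 to 125.8 on knockout arrays and 260 to 3745 on wild-type arrays. The means were −2.27 ± 1.23 in the knockout (SD, n = 4) and 1.86 ± 1.85 in the wild type (SD, n = 7).

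The fitted difference of Nr0b1 was −5.58 ± 0.89 (SE; limma adjusted p = 0.0275; 95% confidence interval −7.57 to −3.59), a 47.8-fold lower level with an interval of 12.05 to 190-fold. It was −4.85 within slide 1 and −6.67 within slide 2, where the wild-type array was labelled female and the knockout arrays male. The slides did not pass a test of that gap (−1.82 ± 1.23, limma adjusted p = 0.363). Only 0.0289% of all tested features had a difference at or below it. The direction held in all 29 alternative analyses, between −6.67 and −3.64, but the adjusted p ranged from 0.000689 to 0.341 and 18 of the 29 passed. Some of the 29 could not move the difference. Leaving out a slide 3 array, using slides 1 and 2 only or changing which probes were tested left it at −5.58 by design. Leaving out any 1 array of slides 1 or 2 ended the call, with an adjusted p between 0.0541 without knockout array 2 and 0.341 without wild-type array 3. With sex as a further term the difference was −4.99 (limma adjusted p = 0.109), and with wild-type array 4, whose label is in doubt, also left out it was −5.23 and passed (limma adjusted p = 0.0372). Nr0b1 lies on the X chromosome, and on the wild-type arrays labelled male its level was 1.86, 2.04 and 0.05, each above the 4 knockout levels. The last of these is of slide 3, which held no knockout array.

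Among wild-type arrays Nr0b1 spanned 5.06 on the log2 scale, and it was higher on arrays 1 to 4 than on arrays 5 to 7, as was the summed level of markers of steroid-making cortical cells. The sum over 6 such markers (Cyp11a1, Cyp21a1, Hsd3b1, Mc2r, Mrap and Scarb1) was 7.16, 8.05, 6.44 and 7.95 on knockout arrays 1 to 4. Fdx1, also on the marker list, was left out of the sum because its spot on knockout array 4 was an outlier and gave no value. The same sum was 8.60, 9.53, 9.498, 9.37, 6.33, 6.46 and 7.29 on wild-type arrays 1 to 7, so the groups overlapped. Levels were added on the unlogged scale, so bright markers such as Hsd3b1 weigh most. On wild-type array 3 Hsd3b1 was at 9.12, Mrap at 6.81 and Scarb1 at 5.59. Mc2r was at 0.42 there, and Cyp21a1, not well above background, at −3.45. Cyp11a1 on that array, at 2.11, lay within the 1.62 to 3.47 of wild-type arrays 5 to 7. Wild-type arrays 5, 6 and 7, with marker sums of 6.33, 6.46 and 7.29 in or just under the knockout range, had Nr0b1 levels of 0.72, −0.02 and 0.05, above all 4 knockout arrays. These wild-type arrays are all of slide 3, which held no knockout array, so slide and genotype cannot be told apart in this comparison. With the marker sum as a further term in the fit, an analysis added after the data were seen, the Nr0b1 difference was −3.64 ± 0.61 and no longer passed (limma adjusted p = 0.110). In such sorted bulk samples, fewer cells of a type and less RNA per cell cannot be told apart.

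**Figure D3:**
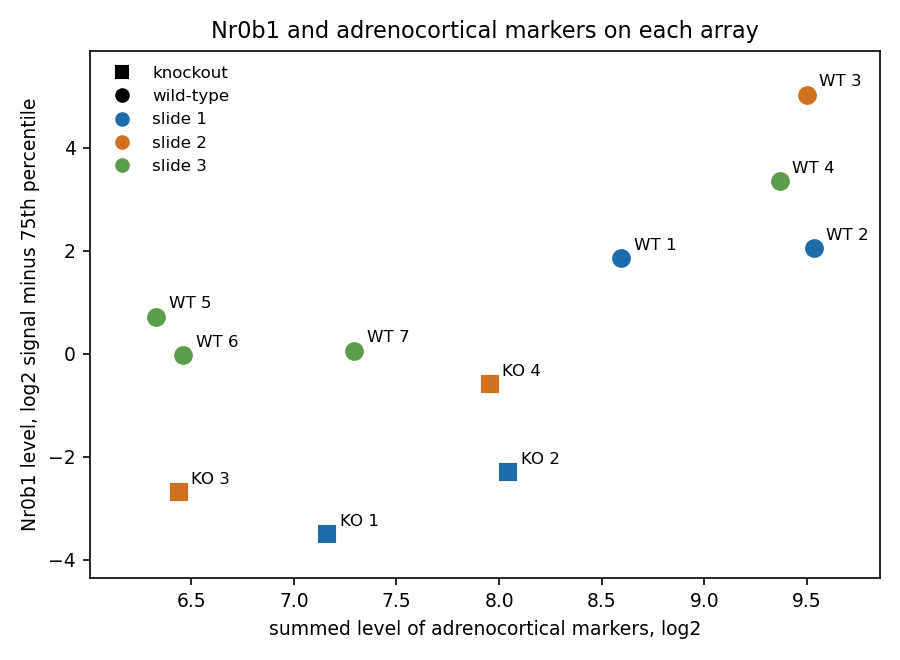
Nr0b1 level (y axis, log2 signal minus the array's 75th percentile) against the summed level of 6 adrenocortical markers (x axis, log2) on each of the 11 arrays, squares for knockout (KO) and circles for wild-type (WT), coloured by slide. The 4 knockout arrays lie below all wild-type arrays, including wild-type arrays 5 to 7, whose marker sums are 6.33 to 7.29.

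The promoter of Nr0b1 is shown because both SF-1 and the TCF/LEF factors of the WNT pathway are known to act on this gene. The 250 bases before its RefSeq start (GRCm38.p6, chrX:86191525-86191774, plus strand, 5′ to 3′) hold 1 match to AGGTCA, the nuclear receptor core motif within the longer SF-1 site, and 1 to CTTTGA, the TCF/LEF core, both in capitals.
Nr0b1: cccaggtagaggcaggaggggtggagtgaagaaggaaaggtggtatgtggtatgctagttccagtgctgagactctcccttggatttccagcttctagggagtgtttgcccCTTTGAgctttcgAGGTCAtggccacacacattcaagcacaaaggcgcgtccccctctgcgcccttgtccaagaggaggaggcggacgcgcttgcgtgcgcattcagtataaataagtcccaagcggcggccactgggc
The CTTTGA match spans −139 to −134 and the AGGTCA match −126 to −121 from the start. Matches were sought on both strands in RefSeq windows of 300 bases, of which 50 lie after the start. Such windows were given for 5 of the 9 genes (Cited2, Nr0b1, Nr2f1, Nr2f2 and Tcf21), 6 windows in all because Nr2f1 has 2 starts. The full SF-1 site CAAGGTCA, which contains AGGTCA, occurred in 0 of the 6 windows and in 1.56% of all 32851 windows. AGGTCA occurred in 1 of the 6 windows and in 16.3% of all, GATAA (the GATA core) in 1, that of Tcf21, and in 25.4% of all. CTTTGA occurred in 3 of the 6, those of Nr0b1, Nr2f2 and Tcf21, and in 16% of all windows. A match describes the letters only.

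Nr5a1, the gene of SF-1 itself, did not pass the test, and its change differed between the slides. Its level (probe A_52_P616265) was −2.42, −2.11, −2.69 and −1.73 on knockout arrays 1 to 4. On wild-type arrays it was −0.61 and −0.98 on slide 1, −2.32 on slide 2, and −0.68, −2.49, −2.45 and −2.36 on slide 3. The wild-type arrays thus fell into 3 high arrays (1, 2 and 4) and 4 that lay inside the knockout range. The fitted difference was −0.84 ± 0.55 (SE, 4 against 3 arrays; limma adjusted p = 0.438; 95% confidence interval −2.08 to 0.40). Within slide 1 it was −1.47, and within slide 2, against the single wild-type array, 0.11. The gap between the slides, 1.58 ± 0.64, did not pass either (limma adjusted p = 0.164). With estimated array weights, which ran from 0.122 to 7.21, the difference was −1.49 and passed (limma adjusted p = 0.0148), in a fit where 2637 features passed.

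SF-1 acts through the steroidogenic genes, and 12 of 13 known target genes were measured. Of the 12, 0 passed in limma and 3 had an unadjusted p under 0.05, against 18.5% of all tested. All 12, the knocked-out gene Star among them, had a fitted difference below 0. Their median was −1.42, against −0.16 over everything tested. The smallest p-values were those of Star, described above, of Hsd3b1, which makes progesterone from pregnenolone, at −2.32 ± 0.78 (adjusted p = 0.173, limma), and of the inhibin subunit gene Inha at −2.04 ± 0.76 (adjusted p = 0.209). Mrap, the accessory protein of the ACTH receptor, was at −1.65 ± 0.77 (adjusted p = 0.291). The list holds all 6 genes of the marker sum above, so its shift and that of the marker sum are partly the same values. Within slides 1 and 2 taken apart, not every target gene was lower in the knockout. Cyp11a1, the enzyme that cuts the cholesterol side chain, differed by −1.24 within slide 1 and by 1.27 within slide 2.

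Of the target genes, 6 had a RefSeq promoter window, and 3 of those hold the AGGTCA motif, as do 16.3% of all windows. These 3 are shown as stretches of 30 bases with the motif, or its reverse complement TGACCT in Akr1b7, in capitals (GRCm38.p6, plus strand). In none of these stretches do the bases beside the motif complete the full SF-1 site CAAGGTCA.
Inha (chr1:75507528-75507557): ttggggattggcAGGTCAactttgaagagt
Cyp11a1 (chr9:58014912-58014941): gaggaaggggggAGGTCAccgctccatcag
Akr1b7 (chr6:34412112-34412141): gaTGACCTttcaaccatgtcacttaggttc
The fitted difference of these 3 genes was −2.04 for Inha, −0.23 ± 0.87 for Cyp11a1 (limma adjusted p = 0.911) and −1.38 ± 0.84 for Akr1b7, an aldo-keto reductase of the mouse cortex (limma adjusted p = 0.402).

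Wt1 and Cited2, which act upstream of Nr5a1, did not pass. The Wt1 probe (A_52_P673458, 10 spots per array) gave −2.40, −1.53, −0.51 and −1.64 on knockout arrays 1 to 4. On wild-type arrays it gave −1.45 and −3.58 on slide 1, −2.56 on slide 2, and −0.41, 1.499, 0.54 and 1.17 on slide 3. All 4 wild-type arrays of slide 3 were thus above all others of either genotype. The SD between spots of the Wt1 probe on an array was 0.0295 to 0.285. The closest pair was wild-type array 4 at −0.41 and knockout array 3 at −0.51, where that SD was 0.0576 and 0.0851, so their order rests on a small gap. Fitted, Wt1 differed by 0.92 ± 0.65 (SE, 4 against 3 arrays; limma adjusted p = 0.468), 0.55 within slide 1 and 1.49 within slide 2. Leaving out wild-type array 1 gave 1.55, and leaving out wild-type array 2 gave 0.48. Without the slide term the sign turned, to −0.83, since slide 3 holds wild-type arrays alone.

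Markers of capsule and stroma ran high on 3 of those 4 slide 3 arrays. Their summed level over 12 genes was 9.96, 9.91, 10.8 and 9.51 on knockout arrays 1 to 4, and 9.31, 8.51, 8.94, 8.44, 11.2, 10.5 and 10.9 on wild-type arrays 1 to 7. Wild-type array 4 had the lowest of these sums and the lowest Wt1 level on its slide. The part of these cells in the Wt1 levels was not tested. Wt1 is also known from kidney and gonad, and summed kidney markers ran from −1.98 to 2.57 on knockout arrays and from −2.68 to 2.97 on wild-type arrays. Gonadal somatic markers ran from 1.22 to 2.33 on knockout arrays and from 1.02 to 2.27 on wild-type arrays. Of the 9 gonadal markers on the array, Sox9 and Dhh were well above background on all 11 arrays and Amhr2 on 4 knockout and 6 wild-type arrays, while Dmrt1, Lhcgr and Hsd17b3 were on 0.

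Cited2, the cofactor of WT1, was measured by 3 probes. The brightest (A_51_P105837) gave 4.55, 5.38, 4.39 and 4.49 on knockout arrays 1 to 4 and between 4.18 and 5.37, with a median of 4.82, on wild-type arrays. The groups overlapped over nearly their whole range, and the fitted difference was −0.42 ± 0.37 (SE, 4 against 3 arrays; limma adjusted p = 0.571). The other 2 probes did not pass either, at −0.67 ± 0.94 for A_51_P478555 and −0.40 ± 1.03 for A_51_P478556 (limma adjusted p = 0.742 and 0.869). Across wild-type arrays these 2 probes spanned 4.31 and 4.64, while the brightest spanned 1.19. On wild-type arrays 5, 6 and 7 they lay at −3.90 to −1.92, below every other array, and on wild-type array 4 of the same slide at 1.04 and 0.74, above every other array. None of the 3 probes passed, and they differed in how Cited2 varied among wild-type mice.

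Gata6, the main GATA factor of the fetal cortex, had 1 bright probe and 2 near background. The bright probe (A_51_P411917) gave 2.88, 3.29, 3.26 and 3.30 on knockout arrays 1 to 4, and on wild-type arrays 3.38 and 3.60 on slide 1, 6.02 on slide 2 and 2.95 to 4.202 on slide 3. Wild-type array 3 alone stood far above the rest, and the lowest wild-type level, 2.95, lay within the knockout range. The fitted difference was −1.34 ± 0.51 (SE, 4 against 3 arrays; 95% confidence interval −2.48 to −0.20; limma unadjusted p = 0.0258, adjusted p = 0.217). It was −0.40 within slide 1 and −2.74 within slide 2, where it was taken against that 1 wild-type array, and without array 3 the fitted value was −0.40. The gap between slides, −2.34 ± 0.43, passed in limma (adjusted p = 0.0435), as did 7.97% of all features tested. Gata6 was the only 1 of the 9 genes that passed this test.

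The dim Gata6 probes gave no call. A_52_P176245 was above background on 3 knockout and 2 wild-type arrays (−0.42 ± 0.56, limma adjusted p = 0.729), and A_52_P590175 on 2 and 2 (0.16 ± 0.47, limma adjusted p = 0.890). Neither repeated the high level of wild-type array 3 above background. Gata4, which in mice is mainly a factor of the early adrenal primordium and the gonads, was near background. Its brighter probe (A_51_P492355) gave −4.13, −3.75, −4.16 and −3.35 on knockout arrays 1 to 4, all well above background. On wild-type arrays it was well above background on numbers 1 and 2 alone, at −3.54 and −3.77. The other 5 wild-type arrays, not well above background, lay between −5.27 and −2.93. Its fitted difference was −0.50 ± 0.33 (SE, 4 against 3 arrays; limma adjusted p = 0.442), and it turned to 0.47 without the slide term. The second Gata4 probe (A_52_P4201, 10 spots) was not well above background on any array.

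**Figure D4:**
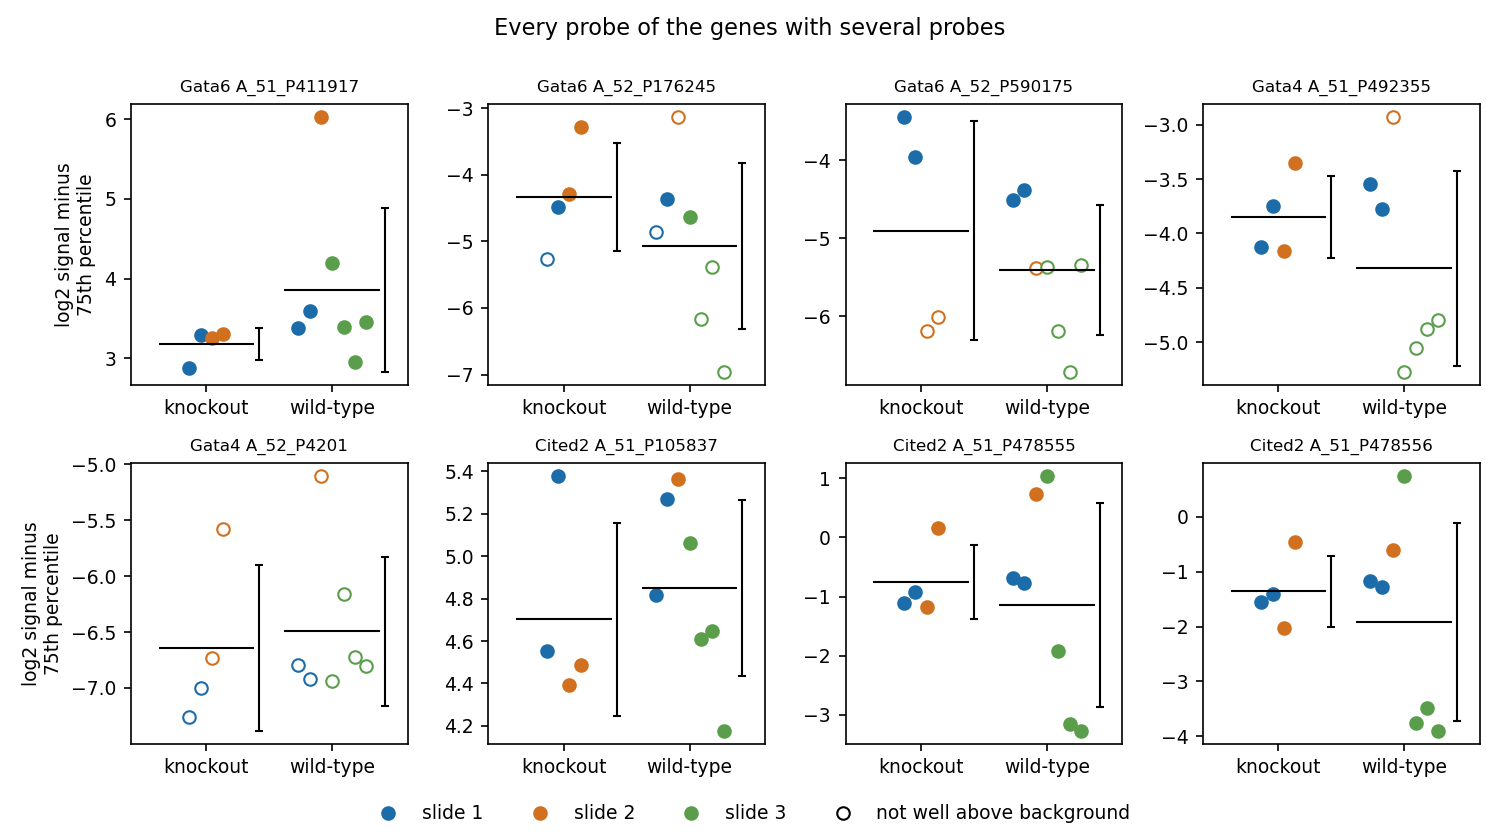
Levels of all probes of Gata6, Gata4 and Cited2, the genes with more than 1 probe (y axis, log2 signal minus the array's 75th percentile; each panel has its own scale), knockout arrays left and wild-type arrays right. Points are arrays coloured by slide, open points are not well above background, and lines and bars give mean and SD; the high Gata6 level of wild-type array 3, 6.02, is seen above background on the bright probe alone.

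The COUP-TF genes, orphan nuclear receptors of stroma and capsule that can compete with SF-1 for binding, did not pass. Nr2f1 (COUP-TFI, probe A_52_P275700) gave −2.19, −1.59, −1.18 and −2.61 on knockout arrays 1 to 4, and −3.52 and −3.66 on slide 1, −1.54 on slide 2 and −2.80 to −1.36 on slide 3 of the wild type. On slide 1 both knockout levels were above both wild-type levels, while on slide 2 the wild-type level lay between the knockout levels. Fitted, Nr2f1 differed by 0.88 ± 0.60 (SE, 4 against 3 arrays; limma adjusted p = 0.455), made of 1.70 within slide 1 and −0.36 within slide 2. With array weights it was 1.42 and passed (limma adjusted p = 0.0457).

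Nr2f2 (COUP-TFII, probe A_52_P620399) gave 5.00, 5.56, 5.39 and 4.65 on knockout arrays 1 to 4 and between 4.31 and 6.98, with a median of 5.70, on wild-type arrays. Its fitted difference was −0.17 ± 0.59 (SE, 4 against 3 arrays; limma adjusted p = 0.904; 95% confidence interval −1.48 to 1.15). Both extremes were wild-type arrays of slide 3, 4.31 on array 4 and 6.98 on array 5, which also had the lowest and highest sums of capsule and stromal markers. Their part in the Nr2f2 level was not tested.

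Tcf21, a basic helix-loop-helix factor of mesenchyme that marks capsular stem and stromal cells in mice, gave −0.34, −0.71, −1.97 and −1.94 on knockout arrays 1 to 4. On wild-type arrays it gave 0.38 and −0.86 on slide 1, −1.88 on slide 2 and −2.42 to −1.64 on slide 3. The levels followed the slide: all 4 arrays of slide 1 were above all other arrays in either genotype. For Tcf21 the fitted difference was −0.20 ± 0.39 (SE, 4 against 3 arrays; limma adjusted p = 0.816; 95% confidence interval −1.06 to 0.67), with −0.28 within slide 1 and −0.07 within slide 2.

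Further factors of adrenal development and partners of the 9 genes were measured from a list of 16, of which 14 passed the filter. Of the 14, 0 passed the test in limma and 3 had an unadjusted p under 0.05, against 18.5% of all tested. The fitted difference was above 0 for 10 and below 0 for 4, with a median of 0.48. The smallest p-values belonged to Usf1, an E-box factor that binds the Nr5a1 promoter, at 1.40 ± 0.45 (adjusted p = 0.158), and Pknox1, a homeobox gene, at 1.09 ± 0.41 (adjusted p = 0.208). The glucocorticoid receptor gene Nr3c1 was at 1.59 ± 0.62 (adjusted p = 0.226), and Hoxb9, another homeobox gene, at −1.28 ± 0.58 (adjusted p = 0.276). Usf1 differed by 0.67 on slide 1 and by 2.49 on slide 2. The only wild-type array of slide 2, number 3, had Usf1 at −4.98, not well above background. Pknox1 differed by 0.35 on slide 1 and by 2.20 on slide 2. It was at −1.38 on wild-type array 3 and at 0.74 to 1.33 on the other wild-type arrays.

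Of the coregulators that bind or modify SF-1 and DAX1, 15 of 16 were tested. Among the 15, 0 passed in limma and 1 had an unadjusted p under 0.05, against 18.5% of all tested. The fitted difference of these coregulators was above 0 for 6 and below 0 for 9, with a median of −0.09. Ddx20, a helicase that represses SF-1, was at −0.90 ± 0.39 (adjusted p = 0.256, limma). The coactivator gene Ncoa3 was at 0.72 ± 0.37 (adjusted p = 0.334) and the acetyltransferase gene Kat2a at 1.23 ± 0.83 (adjusted p = 0.445). Kat2a differed by −0.34 within slide 1 and by 3.60 within slide 2, where wild-type array 3 was at −5.37, not well above background.

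WNT signalling through beta-catenin acts with SF-1 on Nr0b1. Of the 9 WNT genes listed, 1 passed, with a lower level in the knockout, as did 0.231% of all tested. Axin2, the feedback inhibitor that reports WNT activity, was −2.55, −2.23, −2.67 and −2.07 on knockout arrays 1 to 4. On wild-type arrays Axin2 was 0.24, −0.54, 1.42, −0.25, 0.49, 0.49 and −0.16. Its groups thus did not overlap, as for 3.24% of all tested features with the knockout lower. Unlike Nr0b1, Axin2 stayed at −0.25 to 0.49 on all 4 wild-type arrays of slide 3. Its difference was −2.86 ± 0.44 (SE, 4 against 3 arrays; limma adjusted p = 0.0263).

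The other 8 WNT genes did not pass, and over all 9 the fitted difference was above 0 for 3 and below 0 for 6, with a median of −0.75. Tcf7, a TCF/LEF factor, was at −2.83 ± 0.75 (adjusted p = 0.113, limma), with −2.53 to −0.66 on knockout and −1.56 to 2.11 on wild-type arrays. The related gene Lef1 was well above background on 0 of 4 knockout arrays and on 5 of 7 wild-type arrays. The fitted Lef1 difference was −3.03 ± 1.19 (adjusted p = 0.227, limma). Its groups overlapped: wild-type arrays 6 and 7, at −6.71 and −6.93, lay within the −7.06 to −4.86 of the knockout arrays. As a bound, each knockout level was taken as the higher of its own and that array's dimmest signal well above background. The plain knockout mean, without a slide term, then lay 1.596-fold below the mean of the 7 wild-type arrays. Tcf7l1, often a repressor in this family, was at 1.28 ± 0.56 (adjusted p = 0.265).

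Among all tested genes with a symbol, the 5 whose levels over the 11 arrays were most like those of Nr0b1 were Star, H2bc23, Oca2, Tnfrsf19 and D630039A03Rik. Likeness is the root mean square difference of levels after each gene is centred on its mean, and it was 0.784 for Star, 0.982 for H2bc23, 1.06 for Oca2, 1.08 for Tnfrsf19 and 1.11 for D630039A03Rik, against a median of 2.62 over all named genes. Likeness over all 11 arrays takes in the genotype difference, which ran from −6.04 to −3.37 among these 5 genes, and Star is the gene knocked out. Star was highest on wild-type arrays 3 and 4, at 7.86 and 7.49, where Nr0b1 was also highest, at 5.03 and 3.35. Tnfrsf19, a receptor of the tumour necrosis factor family, was −0.03, 0.92, 0.48 and 1.96 on knockout arrays 1 to 4 and between 1.05 and 5.06 on wild-type arrays. On knockout arrays H2bc23 and D630039A03Rik were well above background on 2 of 4 and Oca2 on 1 of 4, so their low end rests on dim signals. D630039A03Rik had a difference of −6.04 ± 0.96 (limma adjusted p = 0.0275), and the other 4 did not pass.

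For Nr5a1 the 5 nearest genes were Ankrd10, Fuom, Slc25a13, Thnsl2 and Haus7, at 0.280 to 0.324 against a median of 1.09 over all named genes. All 5 were well above background on every array, and their limma adjusted p ran from 0.363 to 0.893. Ankrd10 was −0.21, 0.24, −0.06 and 0.40 on knockout arrays 1 to 4, against 2.18, 1.23, −0.17, 1.15, −0.69, −0.08 and −0.16 on wild-type arrays 1 to 7. It was high on wild-type arrays 1, 2 and 4, as Nr5a1 was. These are descriptions over 11 arrays that share slides and genotype.

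Macrophage markers were higher in sum on the knockout arrays. Over the 10 with a value on every array, the sum ran from 8.14 to 8.79 on knockout arrays and from 3.51 to 6.55 on wild-type arrays without overlap. All 11 tested members had a fitted difference above 0, with a median of 2.69. In limma all 11 had an unadjusted p under 0.05, against 18.5% of all tested. Of the 11, 1, Spi1, passed, and 0.602% of all tested passed with a higher level in the knockout. Summed chromaffin markers ran from 2.47 to 7.21 on knockout and from 6.66 to 10.95 on wild-type arrays, and endothelial markers from 5.82 to 7.18 on knockout and from 5.42 to 9.11 on wild-type arrays. Both of these overlapped between genotypes, and of 9 chromaffin and 10 endothelial markers tested 0 passed in limma (1 chromaffin marker had an unadjusted p under 0.05). The part of these cells in the Nr0b1 and other levels given above was not tested.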

How the data were processed

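RNA of sorted adrenocortical cells was amplified, labelled with Cy3 and hybridised to single-colour Agilent arrays, per the labels. The deposited scanner files hold spot intensity from Agilent Feature Extraction, background-subtracted by that program; the file headers name version 10.1.1.1 (slides 1 and 2) and 10.5.1.1 (slide 3), and the submitters' processing notes 10.5.1.1. The authors also deposited a table of log2 values, with no statement of its scaling among the sources used here. For at least 99.8% of probes per array it lay within 0.01 of the log2 levels used here after each probe was centred on its median. The column medians of that table were −0.166 to 0.901, the highest being that of wild-type array 3.

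Control spots and 77 to 164 outlier spots per array were left out, and 0 spots were saturated. Log2 processed signals were averaged over the spots of a probe, and the 75th percentile of the array was subtracted. Probes were named through the files' RefSeq accessions and a gene table of GRCm38.p6: 25285 probes had a symbol and 15889 none, including 92 with conflicting genes. The probe with the highest mean stood for its gene. Summed marker levels use the genes with a value on every array, added on the unlogged scale, so the brightest genes weigh most. Promoter sequences are from RefSeq (GRCm38.p6).

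Genotypes were compared by limma 3.58.1 in R 4.3.3 (lmFit and eBayes, terms for genotype and slide, two-sided, 7 residual degrees of freedom, Benjamini-Hochberg over the 20764 features tested, threshold 0.05). Slide came from the array identity in the files. The labels speak of each mouse's RNA, so arrays count as separate animals. The number of arrays limits precision: in simulated data on 20713 genes this fit called 25.4% of changes of 2 on the log2 scale, 68.7% of 4 and 95.5% of 6. The members and lists were chosen with earlier results of these data known. Named genes are the 9 members, list members past the threshold, up to 4 per list with the smallest p, and the 5 genes nearest to Nr0b1 and to Nr5a1; Cyp11a1, Akr1b7, Spi1, Ddx3y, Sox9, Dhh, Amhr2, Dmrt1, Lhcgr and Hsd17b3 were named after their values were seen. Results for some list members are not reported here. The normexp alternative (offset 50) used median spot signals, as the files have no mean. Other tools were statmod 1.5.0, version 1.17.8 of data.table, Python 3.11.15, pandas 2.3.3, numpy 2.4.6 and matplotlib 3.10.9.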

Additional observations from a re-analysis of the deposited data

Results flagged for a closer look

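In 4 of 28 groups of arrays tested, 1 array stood apart from the rest of its group by Dixon's criterion, which chance does in about 1 in 20 groups. For the bright Gata6 probe A_51_P411917, knockout array 1 lay low at 2.88 (2.877), with the nearest knockout array at 3.26, and wild-type array 3 lay high at 6.02 (6.025), with the nearest wild-type array at 4.202. For the Gata4 probe A_52_P4201, which was above background on no array, wild-type array 3 lay at −5.11 (−5.106) and the nearest at −6.16. For the brightest Cited2 probe, A_51_P105837, knockout array 2 lay at 5.38 (5.377) and the nearest at 4.55. The genotype difference of Gata6 was larger in size within slide 2 than within slide 1, by −2.34 (−2.342; limma interaction, adjusted p = 0.0435), and it rests on the 1 wild-type array of slide 2.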

How the results depend on the processing

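The count of 173 features past the threshold was 601 without the slide term, 471 with slide as a random block, 530 on slides 1 and 2 only, 28 with sex as a further term, 78 with sex and without wild-type array 4, 625 with normexp, 92 with median scaling, 403 over probes above background on all 11 arrays, 2637 with array weights and 9 with the added adrenocortical marker sum. Within slide 1 and within slide 2 it was 0 (limma; 3861 and 7495 at an unadjusted p under 0.05), and it ran from 10 (without wild-type array 3) to 566 (without wild-type array 4) when single arrays were left out. Of the 9 genes, 0 passed within slide 1, within slide 2, with sex or with the marker sum, 3 with array weights, and 0 to 1 with single arrays left out. Nr0b1 was at −4.85 within slide 1 (adjusted p = 0.0911), −6.67 within slide 2 (0.0558), −4.99 with sex, −3.64 with the marker sum, and −6.06 to −4.85 with single arrays left out. Array weights gave −1.49 for Nr5a1 and 1.42 for Nr2f1, both past the threshold. Signs turned, below the threshold, for Nr5a1 (0.11 within slide 2), Nr2f1 (−0.36 within slide 2), Wt1 (−0.83 without the slide term, −0.12 with the marker sum), Gata4 (0.47 without the slide term, 0.019 with the random block), and Tcf21 (0.28 and 0.030 in those 2 fits, and −0.49 to 0.13 with single arrays left out, positive without wild-type array 1). The small Nr2f2 difference turned to 0.17 within slide 1, 0.017 with sex and without wild-type array 4, 0.075 with quantile normalization, and ran from −0.39 to 0.17 with single arrays left out (0.17 without wild-type array 3, 0.011 without knockout array 4). Gata6 kept its sign and missed the threshold in all 29 alternatives. Those that left out a slide 3 array, used slides 1 and 2 only or changed which probes were tested could not move its value of −1.34. With single arrays left out, the values of the others ran from −1.47 to −0.59 for Nr5a1, −1.68 to −0.40 for Gata6, −0.65 to −0.28 for Gata4, 0.48 to 1.55 for Wt1, −0.71 to −0.080 for Cited2 and 0.52 to 1.70 for Nr2f1, none past the threshold. Gata4 had no value under the filter on all 11 arrays. With the replicate number as a block, 178 features passed, Gata4 was at 0.032 and Nr2f2 at 0.095. The numbers were not established as pairs: same-numbered arrays had correlated deviations of −0.0074 to 0.22, and 2 of 4 correlated best with their own number. Where a value or call changed, the cause was not tested.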
